A study of Mus musculus with 2 samples.

Results

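Chemokine receptors are the cell-surface proteins through which cells read the gradients of small secreted proteins, the chemokines, that steer leukocytes into and out of tissues. The genes described here are 7 of the 31053 in the count tables, taken by symbol: Ccr2, Ccr1, Cx3cr1, Ccr7, Cxcr6 and Cxcr4, which signal through G proteins, and Ackr3, the atypical receptor that binds CXCL12 and removes it without G protein signalling. They were followed across cell types, gated by the UMIs (molecules counted by unique molecular identifiers) of marker genes that include no chemokine receptor, and across 2 diets.

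The aortic arch was digested and its cells were profiled by droplet sequencing without a sort. All mice were Apoe-/- males on the C57BL/6 background, killed at 16 weeks, so the Apoe deletion, which raises plasma cholesterol, was shared by both groups. The normal diet (ND) group ate chow. The high-fat diet (HFD) group ate, from weaning, a high-fat, high-cholesterol feed of sucrose, lard, cholesterol, sodium cholate and casein in basal feed. Cells of 2 aortas were pooled into 1 library for each diet, so every comparison of the diets set 1 library against 1 library, has no replicate check and carries no test. Intervals are exact 95% intervals (Poisson for levels, Clopper-Pearson for shares of cells, binomial for ratios) and cover counting error only, not the difference between animals.

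In atherosclerosis, CCR2 brings classical monocytes from the marrow and the blood to the artery wall, CX3CR1 supports monocyte and macrophage survival there, and CCR7 takes dendritic cells and lymphocytes to and through lymph nodes. CXCL12 is read by CXCR4, which retains neutrophils and precursors in the marrow and acts in vessels, and is cleared by ACKR3 on stromal and endothelial cells. CXCR6 marks tissue-homing T cells, and its ligand CXCL16 is made by macrophages.

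The filter kept 5416 ND and 2739 HFD cells, with 27137322 and 17191279 UMIs and medians of 3733 and 5336 UMIs per cell. Levels are counts per 1000000 UMIs (CPM), summed over the cells of a gate, and since 3′ tags count molecules whatever a transcript's length, no value was scaled by length. Shares of cells with a UMI were taken as counted and again after thinning each cell to 1000 UMIs. A lineage was called where a cell held at least 3 of its markers and at least 2 times as many as of any other lineage. Held-out markers were highest in their own gate for 26 of 30 in ND and 24 of 30 in HFD. For T and NK cells this held for 2 of 3 in ND and 1 of 3 in HFD, where Cd2 and Ltb were higher in B cells. Mononuclear phagocytes made up 8.53% of ND and 21.98% of HFD cells, B cells 8.84% and 0.256%, T and NK cells 5.24% and 1.17%, and endothelial cells 44.0% and 43.2%. Cells with markers of several lineages (mixed) made up 9.29% and 14.4%. The median share of mitochondrial UMIs was 16.8% in ND and 21.9% in HFD.

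Of the 7 genes, 3 lie close together on chromosome 9 of the mouse genome build mm10 (GRCm38). Cxcr6 (ENSMUSG00000048521, chr9:123806475-123811760, plus strand) is followed after 150364 bases by Ccr1 (ENSMUSG00000025804, chr9:123962124-123968692, minus strand), and Ccr2 (ENSMUSG00000049103, chr9:124101950-124113557, plus strand) starts 133258 bases further on. Cx3cr1 (ENSMUSG00000052336, chr9:119901616-120069879, minus strand) is on the same chromosome. Ccr7 (ENSMUSG00000037944, chr11:99144196-99155077, minus strand) stands apart on chromosome 11, and Ackr3 (ENSMUSG00000044337, chr1:90203980-90216751, plus strand) and Cxcr4 (ENSMUSG00000045382, chr1:128588199-128592293, minus strand) are on chromosome 1. Of these neighbours on chromosome 9, Ccr1 and Ccr2 were both led by phagocytes, with neutrophils a further large source of Ccr1 in ND. Cxcr6 was led by T and NK cells.

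The receptors were grouped as a phagocyte set (Ccr2, Ccr1, Cx3cr1) and a lymphocyte set (Ccr7, Cxcr6). Cxcr4 was taken as a gene of nearly all leukocytes and Ackr3 as a gene of stroma and endothelium. The first sets overlapped, with Ccr7 at 299 CPM in ND Cd209a dendritic cells and Ccr2 at 258 CPM in ND unconventional T cells. By UMIs of both libraries together, the leading lineage was the mononuclear phagocyte for Ccr1, Ccr2, Cx3cr1 and Cxcr4, the B cell for Ccr7, the T and NK cell for Cxcr6 and the fibroblast for Ackr3. In HFD alone phagocytes led Ccr7 with 35.6% of its UMIs, against 0.875% from B cells. No pooled leading lineage changed under other mitochondrial limits, other gates, thinned cells or with the highest doublet scores left out.

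**Figure D1:**
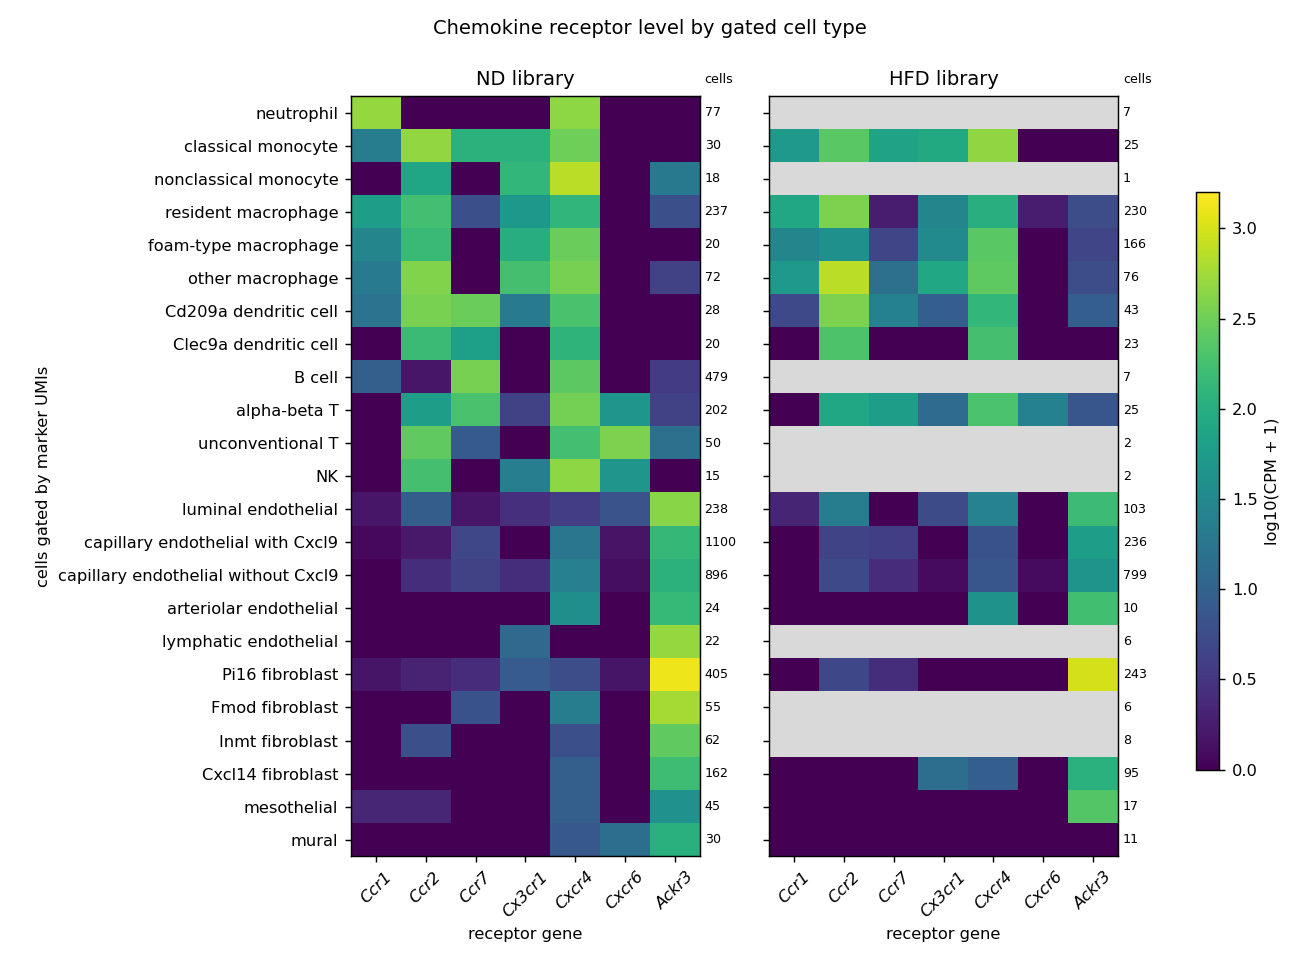
Level of each receptor in each gated cell type of the ND and HFD libraries, on a colour scale of log10(CPM + 1), with gates of under 10 cells in grey. Ackr3 is highest in stromal and endothelial gates, while Cxcr4 spans all leukocyte gates shown. The phagocyte and lymphocyte genes overlap: in ND, Ccr7 is at 299 CPM in Cd209a dendritic cells and Ccr2 at 258 CPM in unconventional T cells. Dark cells of the map are at or near 0.

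Ccr2, the receptor for CCL2, CCL7 and CCL12, was most abundant among the phagocytes in both libraries. Over all kept cells it stood at 36.6 CPM in ND (994 UMIs) and 82.3 CPM in HFD (1415 UMIs), a log2 ratio of HFD to ND of 1.17 (1.05 to 1.29). Among the 7 genes it was the only one over 2-fold higher in HFD, beside a background of 2.68% of the 15101 genes with at least 20 UMIs. Within mononuclear phagocytes the levels were 233 CPM (214 to 253) in ND and 265 CPM (249 to 281) in HFD, a log2 ratio of only 0.18 (0.04 to 0.33). Phagocytes gave 57.0% of the Ccr2 UMIs in ND and 76.2% in HFD. Weighting the level of every lineage by the ND mix of cells gave a log2 ratio for Ccr2 of 0.31, and by the HFD mix 0.24. Most of the difference over all cells thus moved with the mix of cells, and the part of phagocytes alone was not tested. The ratio within phagocytes turned to −0.35 when the mitochondrial limit was set at 20%, with 189 CPM in HFD.

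Within the phagocytes, Ccr2 did not move the same way in every type. Classical monocytes, the blood-derived cells that use CCR2 to leave the marrow, held 481 CPM (373 to 610) in 30 ND cells and 240 CPM (160 to 347) in 25 HFD cells, a log2 ratio of −1.001 (−1.69 to −0.35). They were the highest phagocyte type for Ccr2 in ND and were below the Cd209a dendritic cells in HFD. The Cd209a dendritic cells, a conventional subset that takes up and presents antigen, held 356 and 375 CPM. The Clec9a dendritic cells, which cross-present antigen from dead cells, held 152 and 202 CPM. Of the 4 receptors with at least 20 UMIs in classical monocytes, Ccr2 alone was over 2-fold lower in HFD, beside 11.6% of all genes tested there, and none was over 2-fold higher, beside 3.95%.

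Macrophages, gated by C1q genes and Adgre1 among others, differed by subset. Resident macrophages, which carry Lyve1, Folr2 and Cd163 and lie mostly in the adventitia, held 172 CPM (149 to 198) of Ccr2 in 237 ND cells and 367 CPM (334 to 401) in 230 HFD cells, or 202 and 470 UMIs. The log2 ratio was 1.09 (0.85 to 1.34), and Ccr2 alone of 4 receptors tested in this gate was over 2-fold higher, beside 2.18% of genes, and none was over 2-fold lower, beside 5.74%. After thinning, 11.4% (7.64 to 16.1) of ND and 26.5% (20.9 to 32.7) of HFD resident macrophages had a Ccr2 UMI (19.8% and 45.2% as counted, at medians of 4446 and 5275 UMIs). Fibroblasts, which lack CCR2, gave 0 of 930 ND cells after thinning and 0.490% in HFD. As counted they gave 0.312% and 0.735%, at medians of 3784 and 4377 UMIs. The shares in resident macrophages stood above those of fibroblasts, and the part of free RNA was not tested.

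Foam-type macrophages, gated by lipid-handling genes such as Trem2, Gpnmb and Spp1, went the other way. They held 142 CPM of Ccr2 in only 20 ND cells and 39.1 CPM in 166 HFD cells, a log2 ratio of −1.87 (−2.54 to −1.15). Thus in HFD the level of Ccr2 in resident macrophages was many times that in foam-type macrophages, while in ND both were of the same order. The remaining macrophages, with neither set of markers, held 394 CPM in 72 ND cells and 732 CPM in 76 HFD cells (log2 0.90, 0.59 to 1.21).

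**Figure D2:**
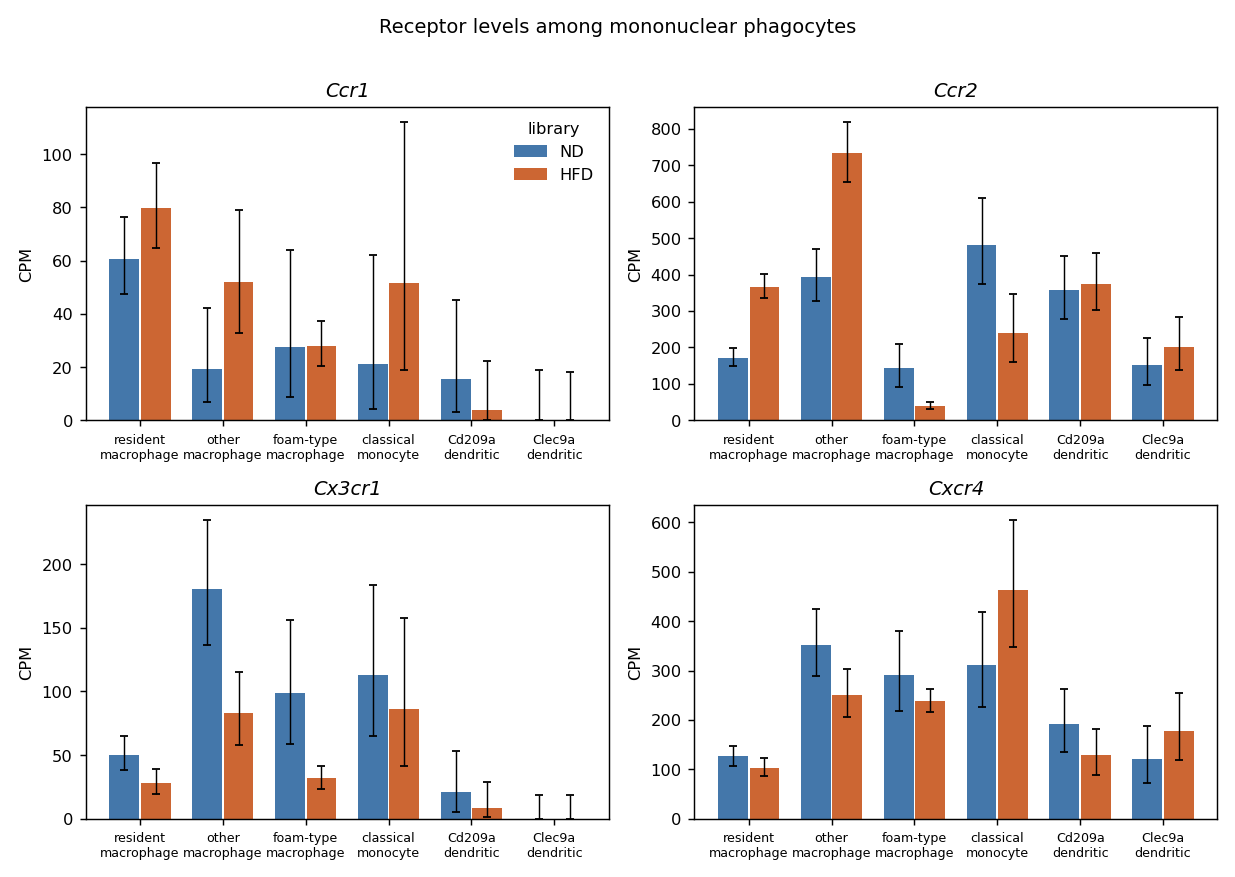
Bars give the level of Ccr1, Ccr2, Cx3cr1 and Cxcr4 in CPM in 6 phagocyte gates of ND and HFD, with whiskers for exact 95% intervals for counting error. Ccr2 in resident macrophages is 172 CPM in ND and 367 CPM in HFD, while in foam-type macrophages it is 142 and 39.1 CPM.

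Other markers moved with Ccr2 in the resident macrophages. The summed level of 5 classical monocyte markers (Ly6c2, Chil3, Plac8, Ms4a4c, Vcan), all with UMIs in both libraries, was 36.7 CPM in ND and 186 CPM in HFD. The Cd209a dendritic list summed to 108 and 183 CPM, with 3 of its 5 genes present and Flt3 and Ffar2 at 0. Endothelial markers (74.2 and 77.2 CPM) and fibroblast markers (70.8 and 60.1 CPM) were at like levels. The median mitochondrial share of these cells was 16.5% in ND and 23.0% in HFD. The monocyte list was nearly as high in HFD cells without a Ccr2 UMI (181 CPM) as in those with one (191 CPM), and leaving out cells with at least 2 monocyte or 2 Cd209a dendritic markers, an alternative chosen after the data were seen, gave a log2 ratio of 1.18. With a mitochondrial limit of 20% the ratio in resident macrophages was 0.83.

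Cx3cr1, the receptor for the membrane-bound chemokine CX3CL1, was the phagocyte receptor with the lower level in HFD. In mononuclear phagocytes it stood at 69.1 CPM (59.0 to 80.3) in ND and 33.9 CPM (28.5 to 40.0) in HFD, or 168 and 138 UMIs, a log2 ratio of −1.03 (−1.36 to −0.69). Of 6 receptors with enough UMIs in phagocytes, Cx3cr1 and Ccr7 were over 2-fold lower in HFD, beside 6.80% of genes, and none was over 2-fold higher, beside 3.68%. Over all kept cells the gene was at 9.07 and 11.3 CPM (log2 0.32, 0.04 to 0.60), a sign opposite to that in its own lineage. At the ND cell mix the log2 ratio was −0.50 and at the HFD mix −0.76. The higher value over all cells thus moved with the mix of cells, and the part of phagocytes alone was not tested. On cells thinned to 1000 UMIs, an alternative chosen after the data were seen, the ratio over all cells also turned to −0.38.

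All 3 macrophage subsets had less Cx3cr1 in HFD. Macrophages together held 79.9 and 36.8 CPM (133 and 123 UMIs; log2 −1.12, −1.48 to −0.75), and Cx3cr1 alone of 5 receptors tested there was over 2-fold lower, beside 8.08% of genes, with none over 2-fold higher, beside 4.30%. Resident macrophages held 50.3 and 28.1 CPM (log2 −0.84, −1.48 to −0.22), foam-type macrophages 98.6 and 31.7 CPM, and the remaining macrophages 181 and 82.9 CPM. After thinning, 10.3% of ND and 3.60% of HFD macrophages had a UMI (23.4% and 12.9% as counted), against 0.0421% and 0 of 1183 in endothelial cells, where the gene was at 0.858 and 0.686 CPM. The resident subset was the exception under another filter: with a mitochondrial limit of 20% its log2 ratio was 0.22. In foam-type macrophages Cx3cr1 and Ccr2 were the 2 of 4 receptors over 2-fold lower in HFD, beside 8.20% of genes.

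Monocytes are classed in blood by these same receptors, CCR2 on classical and CX3CR1 on patrolling nonclassical cells. In 18 ND nonclassical monocytes, gated by Treml4, Cd300e and Ace among others, Cx3cr1 stood at 132 CPM from 7 UMIs, and HFD held a single cell of this gate. Classical monocytes held 113 and 85.8 CPM of Cx3cr1. Cd209a dendritic cells were lower, at 20.7 and 8.06 CPM. The order of the types above about 100 CPM in ND was not resolved beyond counting error at these cell numbers.

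Few resident macrophages carried both receptors. In thinned resident macrophages of ND, 10.5% had Ccr2 alone, 7.17% Cx3cr1 alone and 0.844% both. In HFD the same gate had 25.2% with Ccr2 alone, 0.435% with Cx3cr1 alone and 1.30% with both. The other macrophages kept both classes in HFD, with 40.8% for Ccr2 alone and 9.21% for Cx3cr1 alone, after 23.6% and 13.9% in ND. A cell thinned to 1000 UMIs can lose a low transcript, so the share with both is a minimum.

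Ccr1, a receptor for CCL3, CCL5, CCL6 and CCL9, was highest in neutrophils. In 77 ND neutrophils it stood at 497 CPM (390 to 624) from 74 UMIs, and in 7 HFD neutrophils at 188 CPM (61.1 to 439) from 5 UMIs. Both receptors tested in neutrophils, Ccr1 and Cxcr4, were over 2-fold lower in HFD, but so were 49.3% of all genes tested there, while 2.90% were over 2-fold higher, and the 7 cells set the precision. Neutrophils gave 30.0% of Ccr1 UMIs in ND and 2.03% in HFD, and phagocytes 36.0% and 75.2%. After thinning, 39.0% of ND neutrophils had a UMI, against 0.0421% of endothelial cells (55.8% and 0.0839% as counted, at medians of 1945 and 3581 UMIs).

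In phagocytes the Ccr1 level hardly separated the diets. It was 36.6 CPM (29.4 to 45.02) in ND and 45.4 CPM (39.1 to 52.4) in HFD, a log2 ratio of 0.31 (−0.06 to 0.69), and with a mitochondrial limit of 20% it was −0.19. Resident macrophages were the highest phagocyte subset, at 60.5 and 79.6 CPM, and foam-type macrophages held 27.4 and 28.1 CPM. The remaining macrophages stood at 19.4 and 52.1 CPM (log2 1.43, 0.08 to 3.02). Across all kept cells Ccr1 was at 9.10 CPM in ND and 14.3 CPM in HFD (247 and 246 UMIs; log2 0.65, 0.39 to 0.91), and at the ND and HFD cell mixes the ratios were −0.17 and 0.23, so its sign at a fixed mix depended on the mix. ND T and NK cells had 0 Ccr1 UMIs, which allows up to 3.61 CPM.

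**Figure D3:**
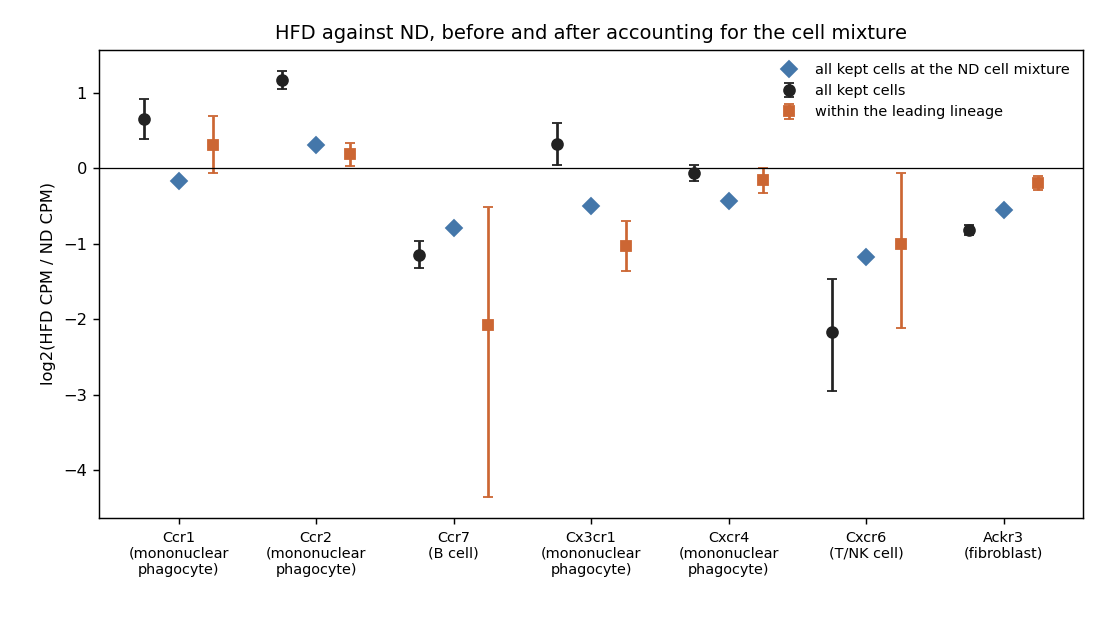
Log2 ratio of HFD to ND for each receptor over all kept cells, at the ND cell mix and in its leading lineage (named under each gene), with exact 95% intervals for counting error where UMIs were compared. Cx3cr1 is at 0.32 over all cells and at −1.03 within phagocytes, and Ccr2 is at 1.17 and 0.18.

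Ccr7, the receptor for CCL19 and CCL21 that guides cells to lymph nodes, came from lymphocytes in ND and from a few dendritic-type cells in HFD. Over all kept cells it stood at 44.1 CPM in ND (1197 UMIs) and 19.95 CPM in HFD (343 UMIs), a log2 ratio of −1.14 (−1.32 to −0.97). Ccr7 and Cxcr6 were the 2 of 7 genes over 2-fold lower in HFD over all cells, beside 12.4% of genes. B cells gave 53.2% of the UMIs in ND and 0.875% in HFD, phagocytes 13.5% and 35.6%, and cells that passed no lineage gate 2.51% and 32.1%. At a fixed cell mix the log2 ratio was −0.80 (ND mix) or −0.55 (HFD mix).

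In B cells the ND level rested on many cells and the HFD level on almost none. The 479 ND B cells held 351 CPM (324 to 379) from 637 UMIs, and 31.5% had a UMI after thinning (60.8% as counted, at a median of 3369 UMIs), against 0.252% of endothelial cells (0.923% as counted). The 7 HFD B cells held 83.6 CPM (17.2 to 244) from 3 UMIs, a log2 ratio of −2.07 (−4.35 to −0.52). Of the 2 receptors tested in B cells Ccr7 alone was over 2-fold lower, beside 42.7% of genes, and with no mitochondrial limit the ratio was 0.018 with 362 CPM in HFD. The diets cannot be compared for Ccr7 in B cells at this number of HFD cells.

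T cells separated by state in ND. Naive-type T cells, with Lef1 and Tcf7, held 460 CPM of Ccr7 from 70 UMIs in 39 cells, and effector-type T cells, with Ccl5 and Nkg7, held 107 CPM in 99 cells. CCR7 is a marker of naive and central memory T cells, and it was not used to gate them. In HFD the naive-type level was 143 CPM, but all 10 UMIs came from 1 of 11 cells. The 9 effector-type T cells of HFD had no Ccr7 UMI, and the interval for the fold of HFD to ND ended at 0.601. Over all T and NK cells the value was 139 CPM in ND and 186 CPM in HFD, and 27 of the 37 HFD UMIs came from 1 cell with no T cell subtype.

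Ccr7 was highest by far in a few mature dendritic cells. The mature dendritic gate (Fscn1, Ccl22, Cacnb3, Il4i1, Zmynd15) is known for CCR7-driven migration, and its 2 ND and 3 HFD cells held 3047 and 5684 CPM from 44 and 94 UMIs (log2 0.90, 0.37 to 1.45). Cd209a dendritic cells held 299 CPM in ND and 24.2 CPM in HFD (58 and 6 UMIs), a log2 ratio of −3.63 (−5.14 to −2.42). Few cells set both levels: Ccr7 was found in 4 of 21 ND cells with a Ccr2 UMI and 4 of 7 without. In HFD it was found in 2 of 28 and 3 of 15. Of 3 receptors tested in that gate Ccr7 alone was over 2-fold lower in HFD, beside 8.46% of genes, and none was over 2-fold higher, beside 3.65%. Clec9a dendritic cells held 63.3 CPM in ND, all 10 UMIs from 1 cell, and none in HFD, where 23 cells allow up to 18.3 CPM. Macrophages were near the floor, at 3.60 and 3.89 CPM.

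Cells with at least 10 Ccr7 UMIs showed how concentrated the gene was in HFD. In ND there were 11 such cells with 161 UMIs, or 13.5% of the gene's total, and 8 of them were phagocytes. In HFD there were 9 cells with 256 UMIs, or 74.6% of the total, of which 3 were phagocytes, 3 ungated, 2 T or NK by gate and 1 mixed. At least 2 mature dendritic markers were present in 3 of the 11 ND and 7 of the 9 HFD cells. In the HFD cells Fscn1, an actin-bundling gene of mature dendritic cells, stood at 807 CPM against 69.1 CPM in all other cells, and the chemokine Ccl22 at 365 against 0.350 CPM. In the ND cells Fscn1 stood at 108 against 87.4 CPM and Ccl22 at 396 against 4.40 CPM. These cells were chosen by their Ccr7 UMIs, so the gate-free description rests on the other genes.

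**Figure D4:**
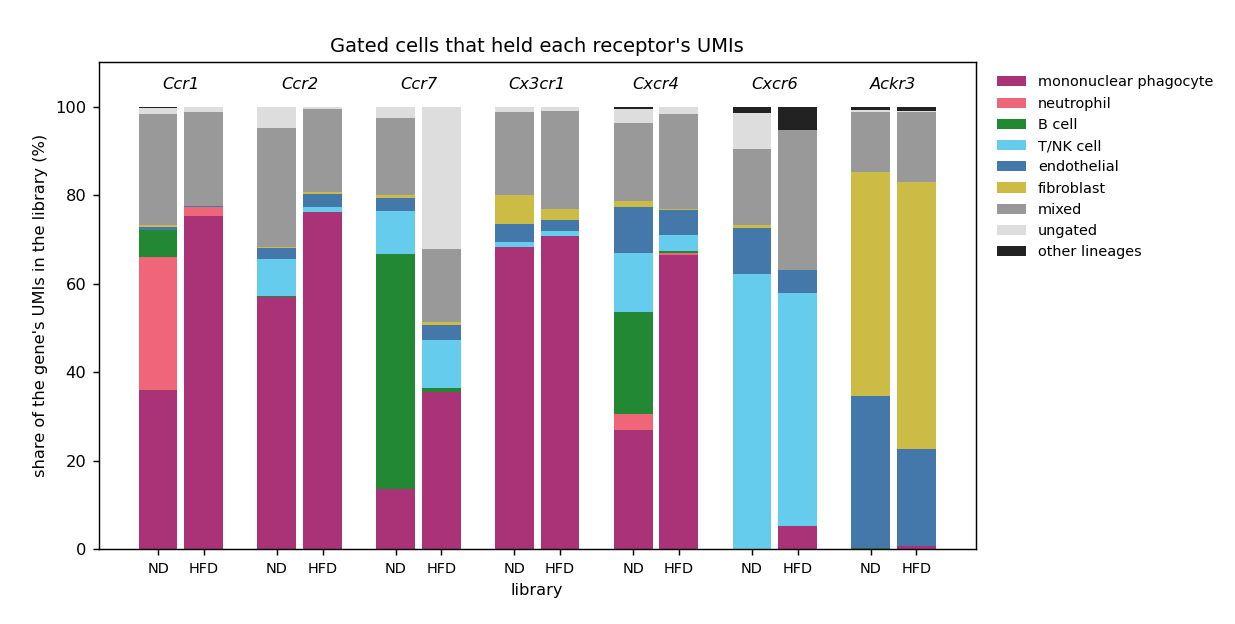
Share of each receptor's UMIs, in percent, that came from each lineage in ND and HFD. B cells give 53.2% of Ccr7 UMIs in ND and 0.875% in HFD, and phagocytes give 27.0% and 66.5% of Cxcr4 UMIs.

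Cxcr6, the receptor for the membrane-bound chemokine CXCL16, was highest in T and NK cells, which gave 62.2% of its UMIs in ND and 52.6% in HFD. It stood at 101.2 CPM (80.7 to 125) in 284 ND cells and 50.3 CPM (24.1 to 92.4) in 32 HFD cells of that lineage, or 84 and 10 UMIs. The log2 ratio was −1.01 (−2.12 to −0.06), Cxcr6 alone of 4 receptors tested there was over 2-fold lower, and 15.0% of genes were. After thinning the shares with a UMI were 8.10% and 9.38% (18.3% and 15.6% as counted, at medians of 2590 and 5259 UMIs), against 0.0841% and 0 of 1183 in endothelial cells, so the shares did not show the lower level. Thinned sums, an alternative chosen after the data were seen, gave a log2 ratio of −0.020.

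Unconventional T cells, gated by Trdc, Tcrg-C1 and Il23r among others and known to settle in tissues, led Cxcr6. The 50 ND cells held 365 CPM (272 to 480) from 51 UMIs, and 30.0% had a UMI after thinning. Alpha-beta T cells held 46.6 CPM in ND and 24.5 CPM in HFD. Effector-type T cells held 79.3 and 65.6 CPM, and the 39 naive-type ND cells had 0 UMIs, which allows up to 19.7 CPM. In HFD the unconventional gate had 2 cells, and 1 of them held all its 6 UMIs. No Cxcr6 UMI was found in 462 ND phagocytes, which allows a share of cells with a UMI of up to 0.649%, whatever the share that makes the transcript.

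Across all kept cells Cxcr6 stood at 4.97 CPM in ND and 1.11 CPM in HFD (135 and 19 UMIs; log2 −2.17, −2.95 to −1.47). At the ND and HFD cell mixes the ratios were −1.17 and −1.45. In HFD the 10 cells with the most UMIs held 89.5% of the total, so a few cells set every HFD value of this gene. Unconventional T cells of ND also had Ccr2, at 258 CPM from 36 UMIs, above the 59.9 CPM of alpha-beta T cells. In ND T and NK cells, none of 26 thinned cells with Ccr7 had Ccr2 or Cxcr6, while 11.2% and 8.91% of the cells without Ccr7 did, and the counting intervals of the shares overlapped. As counted they did not overlap: Ccr2 was found in 2.13% (0.0539 to 11.3) of the cells with Ccr7 and 22.4% (17.2 to 28.2) of those without, and Cxcr6 in 4.26% (0.520 to 14.5) and 21.1% (16.1 to 26.8).

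Cxcr4, the signalling receptor for CXCL12, was the only gene of the 7 with UMIs in every leukocyte lineage of both libraries. In phagocytes it stood at 214 CPM in ND and 191 CPM in HFD (log2 −0.16, −0.32 to 0.00). In T and NK cells it was at 310 and 216 CPM (log2 −0.52, −1.02 to −0.05), and in B cells at 245 and 139 CPM from 444 and 5 UMIs. ND neutrophils, which regain surface CXCR4 as they age, held 457 CPM. Over all cells the levels were 70.9 and 68.1 CPM (1924 and 1171 UMIs), a log2 ratio of −0.058 (−0.16 to 0.05).

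That near-equal total hid a shift of its sources. Phagocytes gave 27.0% of Cxcr4 UMIs in ND and 66.5% in HFD, B cells 23.1% and 0.427%, and T and NK cells 13.4% and 3.67%. Weighted by the ND or the HFD cell mix, the log2 ratio was −0.43 or −0.22. Among phagocytes the 18 ND nonclassical monocytes were highest, at 734 CPM (522 to 1004), and foam-type macrophages (290 and 239 CPM) stood above resident macrophages (126 and 103 CPM) in both libraries. Classical monocytes held 311 and 464 CPM.

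In endothelial cells Cxcr4 was low, at 16.9 CPM in ND and 9.06 CPM in HFD (log2 −0.90, −1.33 to −0.49), and its subsets moved in opposite directions. Capillary cells with Cxcl9, a chemokine induced by interferon, held 16.8 and 5.37 CPM (log2 −1.65, −2.82 to −0.67). Capillary cells without Cxcl9 held 24.1 and 6.08 CPM (log2 −1.98, −2.68 to −1.33). Luminal cells, the Vwf and Vcam1 cells of the large-vessel lining, held 2.82 CPM (0.916 to 6.59) and 25.1 CPM (15.7 to 38.0), from 5 UMIs in 5 cells and 22 UMIs in 10 cells, a log2 ratio of 3.15 (1.72 to 4.91).

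Leukocyte transcripts moved with Cxcr4 inside the endothelial gates. In HFD luminal cells with a Cxcr4 UMI, Ptprc, which encodes the leukocyte antigen CD45, stood at 78.5 CPM against 16.3 CPM in those without, the phagocyte list at 343 against 63.8 CPM, and 40.0% against 5.38% were among the highest doublet scores. In ND capillary cells without Cxcl9, Ptprc stood at 49.6 CPM in cells with Cxcr4 and 4.33 CPM in those without, and in HFD at 59.7 and 4.92 CPM. With the highest doublet scores left out the luminal ratio was 3.61, and without cells that had a Ptprc UMI, an alternative chosen after the data were seen, it was 3.01. With each cell given to the lineage of its most markers it was 1.85. After thinning, 0 of the ND and 1.94% of the HFD luminal cells had a UMI (2.10% and 9.71% as counted), so the value rests on few molecules in each library.

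Ackr3, the scavenger of CXCL12, was a gene of fibroblasts and endothelium. Fibroblasts held 805 CPM (777 to 834) in ND and 703 CPM (665 to 742) in HFD, a log2 ratio of −0.20 (−0.29 to −0.10), and 39.0% and 38.5% had a UMI after thinning (64.3% and 64.5% as counted). Phagocytes held 3.29 and 3.93 CPM, with 0.435% and 0.831% after thinning. As counted, 1.52% and 2.49% of phagocytes had a UMI, at medians of 4525 and 5757 UMIs. The fibroblast level and shares stood above those of phagocytes, and the part of free RNA was not tested. Pi16 fibroblasts, the adventitial population with Dpp4 and Cd55, were the highest gate of over 50 cells in either library, at 1330.1 and 981 CPM (log2 −0.44, −0.54 to −0.34). Cxcl14 fibroblasts held 160 and 108 CPM, so the spread among fibroblast subsets was larger than any difference between the diets there. Of the 3 receptors tested in fibroblasts only Cxcr4, at 7.31 and 1.60 CPM, was over 2-fold lower in HFD, beside 8.15% of genes. The only receptor tested in the Pi16 and Cxcl14 gates was Ackr3, and it was not over 2-fold lower in either, beside 6.24% and 9.31% of genes, or over 2-fold higher, beside 1.95% and 3.32%.

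Endothelial cells differed more. Their Ackr3 level was 180 CPM in ND (2093 UMIs) and 65.9 CPM in HFD (480 UMIs), a log2 ratio of −1.45 (−1.59 to −1.30). After thinning 13.7% (12.3 to 15.1) and 6.85% (5.47 to 8.44) had a UMI (37.6% and 24.7% as counted, although HFD cells were deeper). The lower level was present in each large subset: luminal cells held 430 and 156 CPM (log2 −1.46), capillary cells with Cxcl9 held 133 and 59.6 CPM (−1.16), and capillary cells without Cxcl9 held 114 and 44.6 CPM (−1.35). Ackr3 alone of 4 receptors tested was over 2-fold lower in endothelial cells, beside 8.96% of genes, and Ccr2 alone was over 2-fold higher, beside 2.08%, with 2.06 CPM in ND and 5.90 CPM in HFD. Leukocyte transcripts stood beside that Ccr2: Ptprc was at 135 CPM in the ND endothelial cells with a Ccr2 UMI and 9.11 CPM in those without, and at 168 and 5.19 CPM in HFD. Of the cells with a Ccr2 UMI, 50% in ND and 23.8% in HFD were among the highest doublet scores, against 2.92% and 3.18% of the others, and their part in the result was not tested. In the luminal gate 1 of 3 receptors tested (Ackr3) was over 2-fold lower, beside 6.57%, and 2 (Cxcr4 and Ccr2) were over 2-fold higher, beside 3.63%. In the capillary gates Ackr3 and Cxcr4 were the 2 of 3 receptors over 2-fold lower, beside 8.34% with and 8.02% without Cxcl9. The remaining receptor tested was Ccr7 in the gate with Cxcl9 and Ccr2 in the gate without. Ccr2 was over 2-fold higher without Cxcl9 (fold 2.46, 0.881 to 8.48), beside 2.90% of genes. With Cxcl9 no tested receptor was over 2-fold higher, beside 2.62%. Ccr2 had too few UMIs there to be tested (4 and 6 UMIs, fold 5.43, 1.29 to 26.1). The endothelial ratio of Ackr3 kept its sign under all 10 other settings, between −1.55 and −1.12.

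**Figure D5:**
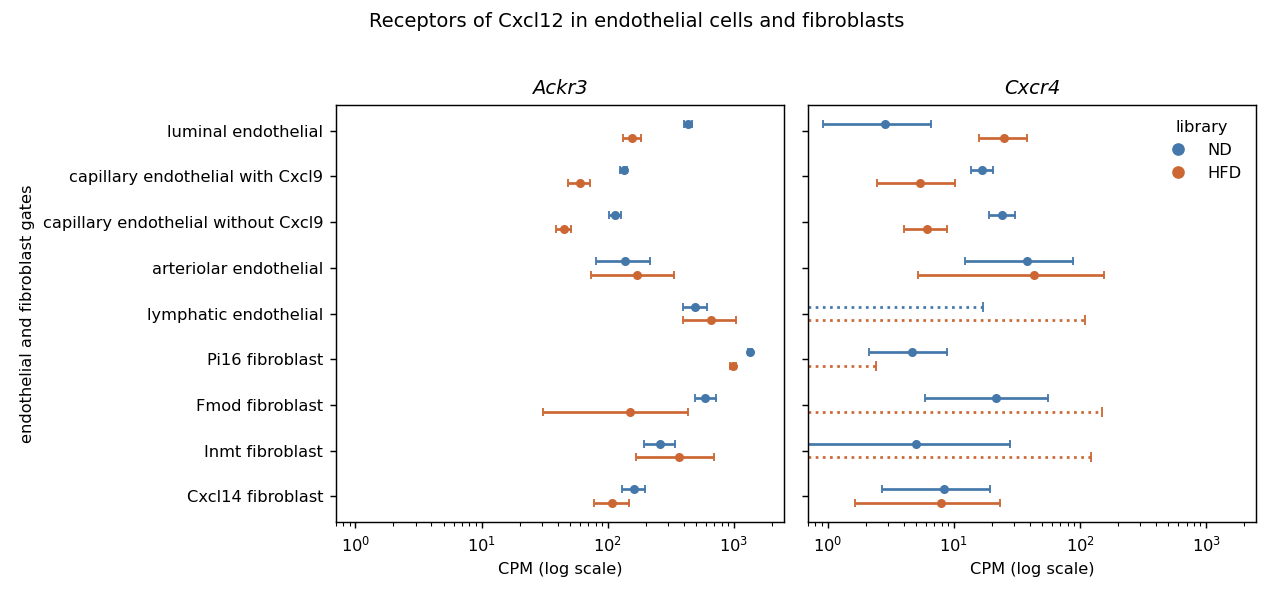
Level in CPM of Ackr3 and Cxcr4, the receptors of CXCL12, in endothelial and fibroblast subsets of ND and HFD, with exact 95% intervals for counting error on a log axis. Ackr3 is lower in HFD in the luminal and both capillary gates, while Cxcr4 is higher in HFD in the luminal gate and lower in the capillary gates. Dotted lines end at the level that 0 UMIs allow.

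Smaller stromal gates were less certain. Lymphatic endothelial cells held 495 CPM of Ackr3 in 22 ND cells and 659.9 CPM in 6 HFD cells. Mural cells held 107 CPM in 30 ND cells and no UMI in 11 HFD cells. The interval for the fold of HFD to ND ended at 0.862. All 16 ND UMIs came from smooth muscle cells, 23 in ND and 4 in HFD, where that interval reached 1.52, so no minimum difference was shown there. Mesothelial cells held 40.8 CPM in 45 ND cells and 218 CPM in 17 HFD cells (34 and 20 UMIs; log2 2.42, 1.55 to 3.26). Fibroblast markers stood beside that value: they summed to 527 CPM in ND mesothelial cells with Ackr3 and 38.5 CPM in those without. In HFD they were high both with and without Ackr3, at 1679 and 1710 CPM. Their part in the result was not tested. Taken over all kept cells Ackr3 was at 225 CPM in ND and 127 CPM in HFD (6095 and 2190 UMIs; log2 −0.82, −0.89 to −0.75), and at the ND and HFD mixes at −0.55 and −0.65.

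Ackr3 and Cxcr4 were not set apart from each other among endothelial cells. As counted, 46.2% (37.8 to 54.7) of ND endothelial cells with Cxcr4 had Ackr3, and 37.1% (35.1 to 39.1) of those without, and in HFD 43.2% (28.3 to 59.0) and 24.0% (21.5 to 26.6), where the intervals did not overlap. After thinning, in ND, 3.08% (1.49 to 5.59) of endothelial cells with Ackr3 had Cxcr4, and 1.51% (1.03 to 2.14) of those without. The thinned HFD shares were 1.23% (0.0313 to 6.69) and 0.907% (0.436 to 1.66), and the intervals overlapped in both libraries. Of ND endothelial cells with Cxcr4, 16.1% were among the highest doublet scores, against 2.41% of those without, and their part was not tested. In ND B cells Cxcr4 was present in 26.5% (19.6 to 34.3) of cells with Ccr7 and 19.2% (15.1 to 23.9) of the others after thinning, but in 46.0% and 52.7% as counted. In macrophages Ccr2 was present after thinning in 33.3% (18.0 to 51.8) of HFD cells with Ccr1 and 20.7% (17.0 to 24.8) of the others. The order was the opposite in ND, with 6.67% (0.169 to 31.9) and 15.6% (11.8 to 20.1). As counted the HFD shares were 55.1% (45.2 to 64.8) and 35.6% (30.7 to 40.8), whose intervals did not overlap, and the ND shares 21.8% and 26.3%.

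The ligands of these receptors were listed by receptor. Of 12 measured ligand genes, 4 (Ccl6, Ccl9, Ccl7, Cxcl16) were over 2-fold higher in HFD over all kept cells and 1 (Ccl21a) over 2-fold lower, beside 2.68% and 12.4% of all genes, with a median log2 ratio of 0.32 beside −0.18 for all genes. For the CCR1 ligands, Ccl6 stood at 222 and 829 CPM and Ccl9 at 110 and 293 CPM, while Ccl3 stood at 37.1 and 46.8 CPM and Ccl5 at 176 and 106 CPM. Ccl6 was a phagocyte gene, at 1823 CPM in ND and 2929 CPM in HFD phagocytes.

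For CCR2, the ligands did not move together. Ccl2 was lower in HFD phagocytes, at 675 and 333 CPM (log2 −1.02), and nearly level in fibroblasts, at 146 and 140.3 CPM. Ccl12 was also lower in phagocytes, at 194 and 83.7 CPM. Ccl7 was higher in HFD fibroblasts, at 49.3 and 137 CPM (log2 1.47), and stood at 365 and 304 CPM in phagocytes.

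Among ligands of the other receptors, Cxcl12, Cx3cl1, Ccl21a and Ccl19 are given for stroma or endothelium and Cxcl16 for phagocytes. Cxcl12 stood at 480 CPM in ND and 937 CPM in HFD endothelial cells (log2 0.96, 0.91 to 1.02), and at 350 and 739 CPM in fibroblasts (log2 1.08, 0.97 to 1.19), so in endothelial cells the ligand was higher and its scavenger Ackr3 lower in HFD. Cx3cl1, the ligand of CX3CR1, stood at 37.8 and 28.1 CPM in endothelial cells (log2 −0.42, −0.67 to −0.18). Ccl21a came from lymphatic endothelial cells, at 11987 and 14555 CPM, and its lower level in endothelial cells (199 and 54.6 CPM) went with 22 and 6 lymphatic cells. Ccl19 stood at 49.1 and 39.5 CPM in fibroblasts. Cxcl16 stood at 189 and 268 CPM in phagocytes (log2 0.50, 0.35 to 0.66).

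Of 16 other chemokine receptors, 12 had at least 20 UMIs, and of these 3 (Ccr6, Cxcr2, Cxcr5) were over 2-fold lower in HFD over all cells, beside 12.4% of genes, with a median log2 ratio of −0.24. The 3 lower genes came from the gates that HFD nearly lacked: Cxcr5 (111 CPM) and Ccr6 (24.3 CPM) from ND B cells, and Cxcr2 (457 CPM) from ND neutrophils. Ccrl2, which presents chemerin, stood at 1250 CPM in ND neutrophils. Cxcr3 stood at 50.6 and 20.1 CPM and Ccr9 at 41.0 and 90.5 CPM in T and NK cells. The atypical receptors Ackr1 (39.9 and 69.3 CPM) and Ackr2 (22.7 and 33.1 CPM) were fibroblast genes here, as Ackr3 was. Xcr1 stood at 2.21 and 3.14 CPM, Ccr10 at 1.14 and 0.756 CPM and Ackr4 at 1.03 and 0.582 CPM over all cells.

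The genes closest to each receptor in pattern were taken across the 12 gates with at least 20 cells in each library, by Pearson's r of log2(CPM + 10) over 10791 genes. Gates left out included B cells, neutrophils, unconventional T cells, NK cells, nonclassical monocytes and mature dendritic cells. The gates highest in Cxcr6 and Ccr7 were thus absent, and alpha-beta T cells were the only T cell gate. All gates shared a library, so the values describe likeness and carry no p. The nearest genes were Tlr7 (r = 0.99), Csf1r (0.98, a gate marker) and Fcgr1 (0.98) for Ccr1, and Ccl4, Fam49b and Phf11b (each 0.97) for Ccr2. For Cx3cr1 they were Ccl3 (0.97), Fcgr4 (0.95) and Apobec1 (0.95), for Ccr7 they were Klrd1 (0.95), Cenpl (0.94) and Psmb3 (0.93), and for Cxcr4 they were Ptprc (0.98), Atp8b4 (0.97) and Dock8 (0.97). Cxcr6 was nearest to Bcl11b and to the gate markers Cd3e and Il2rb, each above 0.99, a value that rests on the alpha-beta T cell gate. Ackr3 was nearest to Nectin3, Plat and Map6 (each 0.98).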

How the data were processed

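Single-cell RNA sequencing was done on 1 library per diet, each a pool of 2 aortas. The authors made the UMI counts with Cell Ranger (3.0.1 per the file headers) and deposited raw counts per gene and barcode for each library. Per the submitters' processing notes the genome build was mm10, and bcl2fastq, UMI-tools, Seurat 3.2.0 and R 4.0.0 were also used; no source used here names the gene annotation. A joined matrix of both libraries was not used. Cell Ranger drops reads placed at more than 1 gene, and what close relatives lose by this was not tested.

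By the study's own limits, a barcode needed 200 genes, 200 UMIs and no more than 30% of its UMIs from mitochondrial genes to be kept (5416 of 10234 in ND, 2739 of 14225 in HFD). The kept cells of both libraries share 1 barcode. Cells were gated by markers (3 for a lineage, 2 for a type or subset), UMIs were summed per gate, and exact 95% intervals were computed. A count of 0 was given a floor of 3 UMIs. Each cell was also thinned to 1000 UMIs, which left out 63 ND and 0 HFD cells. Scrublet called 0 and 1 doublets, so it did not work as a caller. No cell was removed for it, and leaving out the 6% highest scores (354 and 187 cells, ties at the limit included) was an alternative. These cells held 40.0% and 27.8% of the mixed cells. The background is the genes with 20 or more UMIs over the pair of libraries, called where they lay beyond 2-fold. Totals per library, 27137322 and 17191279 UMIs, set the precision.

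Named genes were the members, other receptors with at least 20 UMIs, the ligands, signalling genes and the 3 genes nearest to each member in pattern (genes with at least 200 UMIs). The members and lists were chosen with earlier results of these data known. 3 of 51 listed genes (Cxcl11, Adrbk1, Adrbk2) were not found in the counts by symbol, and the result of 1 other listed receptor is not reported here. Thinning and intervals were tested on simulated data, and the gates were not. Groups came from the labels, and no test was possible with 1 library per diet. Alternatives were other mitochondrial limits, gates, weights, scalings and doublet handling. Python 3.11.15, numpy 2.4.6, scipy 1.17.1, pandas 2.3.3, scanpy 1.11.5 and matplotlib 3.10.9 were used.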

Additional observations from a re-analysis of the deposited data

Results flagged for a closer look

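Several receptors had differences between the diets that pointed in opposite directions in different cell types of the same libraries. These opposite directions were not tested, since each diet has 1 library. For Ccr2 the log2 ratio of HFD to ND was 0.26 in macrophages and −1.001 in classical monocytes, and among macrophages it was 1.09 in the resident, 0.90 in the remaining and −1.87 in the foam-type subset. For Ccr7 it was 0.90 in mature dendritic cells (2 and 3 cells) and −3.63 in Cd209a dendritic cells (58 and 6 UMIs, from few cells). For Cxcr4 it was 3.15 in luminal endothelial cells, −1.65 in capillary cells with Cxcl9 and −1.98 in those without. For Ackr3 it was 2.42 in mesothelial cells (34 and 20 UMIs, in gates that also held fibroblast markers), −1.45 in endothelial cells and −0.20 in fibroblasts.

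The barcodes that the filter removed (4818 in ND and 11486 in HFD) also held UMIs of every receptor. They entered only the alternative with no mitochondrial limit, as far as that limit had removed them. In ND the removed barcodes held Ccr1 at 15.7 CPM, Ccr2 at 7.94 CPM, Ccr7 at 22.8 CPM, Cx3cr1 at 7.94 CPM, Cxcr4 at 63.1 CPM, Cxcr6 at 2.999 CPM and Ackr3 at 69.1 CPM. In HFD they held Ccr1 at 9.75 CPM, Ccr2 at 24.5 CPM, Ccr7 at 9.41 CPM, Cx3cr1 at 5.68 CPM, Cxcr4 at 42.05 CPM, Cxcr6 at 3.28 CPM and Ackr3 at 42.6 CPM. Of the ND values only that of Ccr1 was above its level in the kept cells (9.10 CPM), and of the HFD values only that of Cxcr6 (1.11 CPM).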

How the results depend on the processing

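Over all kept cells and in leading lineages, 150 of the values recomputed under other settings stayed within the counting interval, 68 moved outside it and 3 turned in sign from an interval that excluded 0; the causes were not tested. Ratios whose interval held 0, such as Cxcr4 over all cells (same sign in 4 of 7 settings) and Ccr1 in phagocytes (8 of 9), are not among the 3. All log2 values are HFD to ND, and paired CPM are ND then HFD. With a mitochondrial limit of 20%, the ratios over all cells were 0.92 for Ccr2, −2.39 for Ccr7, 0.31 for Cxcr4 and −1.03 for Ackr3. In phagocytes at that limit Ccr1 was −0.19 (35.8 CPM in HFD), Ccr2 turned to −0.35 (189 CPM in HFD), Cx3cr1 was at 56.8 and 23.85 CPM and Cxcr4 at 193 CPM in ND, Ackr3 in fibroblasts was −0.10 (771 CPM in HFD), and Cx3cr1 in resident macrophages turned to 0.22. With no limit, the ratios over all cells were 0.34 for Ccr1, 0.78 for Ccr2, −1.38 for Ccr7, −0.23 for Cxcr4, −0.81 for Cxcr6 and −1.18 for Ackr3, Ccr7 in B cells turned to 0.018 (362 CPM in HFD), Cx3cr1 in HFD phagocytes was 43.2 CPM, and Ackr3 in fibroblasts was −0.41 (776 and 583 CPM). Without mitochondrial, haemoglobin and ribosomal genes, Ackr3 over all cells was −0.73, phagocytes held 51.8 and 66.5 CPM of Ccr1, 329.9 and 388 of Ccr2, 97.7 and 49.6 of Cx3cr1 and 303 and 280.1 of Cxcr4, ND B cells held 685 CPM of Ccr7, ND T and NK cells 183 CPM of Cxcr6, and Ackr3 in fibroblasts was −0.013 (1070 and 1061 CPM). Scaling by the median of ratios gave 1.32 for Ccr2, 0.094 for Cxcr4 and −0.67 for Ackr3 over all cells and −0.057 for Ackr3 in fibroblasts. With each cell weighted equally, the ratios over all cells were 0.16 for Ccr1, 1.34 for Ccr2, −1.34 for Ccr7, −0.47 for Cxcr4 and −0.62 for Ackr3, Ccr2 in phagocytes was 0.45 (309 CPM in HFD), Ccr7 in ND B cells 387 CPM, Cx3cr1 in ND phagocytes 87.1 CPM and Ackr3 in fibroblasts 722 and 643 CPM. With each cell given to the lineage of most markers, Ackr3 in fibroblasts was 774 and 646 CPM. On cells thinned to 1000 UMIs, the ratios over all cells were 0.16 for Ccr1, 1.35 for Ccr2, −0.38 for Cx3cr1, −0.52 for Cxcr4 and −0.49 for Ackr3, Ccr1 in HFD phagocytes was 61.5 CPM, Ccr2 was 0.41 (317 CPM in HFD), Cx3cr1 −1.59 (100 CPM in ND), Ccr7 in ND B cells 422 CPM, Cxcr6 in T and NK cells −0.020 (93.8 CPM in HFD) and Ackr3 in fibroblasts 697 and 645 CPM. Leaving out the highest doublet scores and asking for 4 markers moved none of these values beyond its interval. Among values of other gates 154 stayed, 19 moved and 1 turned in sign from an interval that excluded 0, while Ccr7 in T and NK cells, whose interval held 0, kept its sign in 7 of 8 settings (−0.79 to 1.67). Thinned sums, leaving out cells with Ptprc or with monocyte markers, and mature dendritic markers in any gate (725 and 1327 CPM of Ccr7 in 4 and 13 cells) were chosen after seeing the data. No paired analysis was possible because each diet has 1 library, and for the same reason no replicate could be left out. Depth limits Cxcr6, with 135 and 19 UMIs, and every value of the 7 HFD B cells and 7 HFD neutrophils.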

Other observations

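Of 13 measured genes that act behind these receptors (G proteins, arrestins, kinases and regulators of G protein signalling), 1 (Rgs1) was over 2-fold higher and 1 (Rgs16) over 2-fold lower in HFD over all kept cells, beside 2.68% and 12.4% of all genes, with a median log2 ratio of −0.16. Rgs1, which damps chemokine receptor signals in leukocytes, stood at 75.1 CPM in ND and 188 CPM in HFD. Within phagocytes it stood at 440 and 625 CPM (log2 0.51, 0.40 to 0.61), and within T and NK cells at 471 and 151 CPM (log2 −1.64, −2.23 to −1.11), so Rgs1 lay on opposite sides in these lineages, which was not tested. Rgs16 stood at 18.8 and 6.40 CPM over all cells. Gnai2, the main inhibitory G protein subunit of leukocyte chemotaxis, stood at 649 and 787 CPM, and Arrb2, an arrestin, at 25.8 and 39.3 CPM.

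Cells with at least 3 proliferation markers, 67 in ND and 60 in HFD and drawn from any gate, held Cxcr4 at 156 and 131 CPM, above the 70.9 and 68.1 CPM of all kept cells. Ccr2 stood at 73.2 and 86.6 CPM in them. Cells with at least 2 markers of immature lymphocytes (Rag1, Rag2, Dntt and surrogate light chain genes), 24 in ND and 17 in HFD, held Cxcr4 at 214 and 160 CPM and no UMI of Ccr1, Ccr2, Cx3cr1 or Cxcr6 in either library. CXCR4 holds lymphocyte precursors in the marrow. The same ND gate held Ackr3 at 179 CPM from 21 UMIs, and that came from 8.33% of its cells. The HFD gate held Ackr3 at 88.2 CPM from 11 UMIs.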
